A study of Mus musculus with 13 samples.

Results

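The glucocorticoid receptor gene Nr3c1 and 4 genes known to respond to the receptor, Tsc22d3, Fkbp5, Sgk1 and Txnip, were followed in double-positive thymocytes with and without Rad21. The 5 genes were taken by symbol from the RNA-seq table of 17849 Ensembl genes, and all 5 passed the filter on low counts that left 12003 genes for testing. The libraries came from sorted CD4+CD8+ cells, the thymocyte stage that carries both coreceptors. Of these, 2 libraries were labelled Rad21 KO (knockout of a subunit of the cohesin ring) and 2 wild type (WT). The labels of these libraries do not give the Cre or other means of deletion, the strain background, the age or the sex of the mice, or whether mice were pooled. Both genotypes were handled alike: RNA was extracted with RNABee, ribosomal RNA was depleted with a Ribominus kit, and libraries were made with an Illumina kit. No hormone treatment is given for any group.

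Glucocorticoids are steroid hormones of the adrenal cortex, and the thymus can make them as well. Their receptor waits in the cytoplasm in a complex with heat-shock protein 90 and co-chaperones; on binding hormone it moves to the nucleus, binds DNA as a dimer, and raises or lowers transcription. Double-positive thymocytes are among the cells most readily killed by glucocorticoid, and the hormone is also known to affect which thymocytes survive selection. Tsc22d3, often called Gilz, encodes a leucine zipper protein that inhibits AP-1 and NF-κB. Fkbp5 encodes FKBP51, a co-chaperone that lowers the receptor's affinity for hormone and so forms a negative feedback loop. Sgk1 encodes a serum- and glucocorticoid-regulated kinase that acts downstream of mTORC2. Txnip encodes an arrestin family protein that binds thioredoxin and restrains glucose uptake.

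Sequences upstream of the starts of 4 of the genes were read from RefSeq (build GRCm38.p6), which lists 6 starts for Sgk1, 3 for Tsc22d3 and 1 each for Fkbp5 and Txnip. Windows of 250 bases before to 50 bases after each start were searched on both strands. The palindromic glucocorticoid response element was searched as AGAACA and TGTTCT with any 3 bases between them, and its shorter core as GNACA and TGTNC with the same spacing; every match to the first also holds the second. The full element stood in 3 of 32851 windows of all genes (0.00913%), 1 of which was an Sgk1 window. This stretch is shown because Sgk1 was the member that passed the test below, with the 250 bases before that start on chr10:21993640-21993889, plus strand, and the element in capitals.
Sgk1: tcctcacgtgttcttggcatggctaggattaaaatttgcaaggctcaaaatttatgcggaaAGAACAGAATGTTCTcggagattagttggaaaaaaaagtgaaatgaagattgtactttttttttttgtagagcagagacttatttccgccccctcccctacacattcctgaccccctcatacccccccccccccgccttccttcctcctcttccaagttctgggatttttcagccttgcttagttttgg
The element begins 189 bases before this start, and the same window holds the E-box CACGTG. The count table does not show from which of the 6 starts the Sgk1 reads came.

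Txnip is known to be induced through a carbohydrate response element, a pair of E-box-like sequences searched as CACGNG repeated after any 5 bases, which stood in 16 of 32851 windows (0.0487%). Its upstream stretch at chr3:96557707-96557956, plus strand, is shown with that element in capitals.
Txnip: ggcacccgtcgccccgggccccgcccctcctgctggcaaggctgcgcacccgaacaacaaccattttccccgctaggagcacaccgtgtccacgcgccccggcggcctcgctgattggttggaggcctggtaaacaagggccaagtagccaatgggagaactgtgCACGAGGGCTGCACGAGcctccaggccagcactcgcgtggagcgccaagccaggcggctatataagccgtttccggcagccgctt
The Txnip window also holds a match to the core glucocorticoid element, GCACACCGTGTCC, which 0.475% of all windows hold in some form. The Fkbp5 window holds the E-box CACGTG, found in 7.15% of windows, and none of the 3 Tsc22d3 windows holds any of these 4 motifs. Fkbp5 lies on chromosome 17 and Tsc22d3 on chromosome X. The response elements known for these genes often lie outside such short windows. The peak lists of this series use the build mm9 and were not placed at these genes.

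Rad21 itself, the check of the labels, stood at 67.9 and 65.7 CPM in the Rad21 KO libraries, against 271 and 233 CPM in the WT libraries (log2 fold change -1.91, SE 0.12, with edgeR giving an adjusted p = 0.000862). CPM are counts scaled to a common library size with TMM factors, which correct for libraries in which a few genes take many reads. The libraries held 6500819 to 9384505 counts. Lars2 and Gm15564 together made up 34.5% (replicate 1) and 12.6% (replicate 2) of the Rad21 KO libraries, against 5.84% and 7.47% of the WT ones, and their part in the results below was not tested beyond leaving both genes out. Both coreceptor genes that define the double-positive stage were abundant in every library. Cd4 had 995 and 870 CPM in Rad21 KO and 1450 and 1140 CPM in WT, and Cd8a had 1800 and 1570 CPM in Rad21 KO and 2230 and 2020 CPM in WT; neither passed the test. Together with Cd8b1, Rag1, Rag2, Cd3e, Dntt, Tcf7 and Themis, 9 markers in all, they summed to 12500 and 10900 CPM in Rad21 KO, against 17400 and 15900 CPM in WT, so both Rad21 KO libraries were below both WT libraries, and the part of this in the results below was not tested. Of these markers Rag1, Rag2, Dntt and Themis fell in Rad21 KO. Few markers of other cell types were high: of 6 B cell genes, 2 were high enough to test, as were 5 of 7 for macrophages and dendritic cells, 2 of the 4 erythroid genes in the table and 0 of the 2 granulocyte genes in it. B cell markers summed to between 17.5 and 21.9 CPM, macrophage and dendritic cell ones to between 18.6 and 30.2 CPM, erythroid ones to between 2.46 and 4.73 CPM and granulocyte ones to between 0.831 and 1.5 CPM, in ranges that overlapped between the genotypes. Thymic epithelial and stromal markers summed to 24.8 and 30.2 CPM in Rad21 KO, against 18.3 and 19 CPM in WT, with 3 of the 7 genes in the table high enough to test and Pdgfra at 0 in every library. Of these, Epcam rose (9.45 and 11.7 CPM in Rad21 KO, against 1.5 and 0.969 CPM in WT), and it passed the filter on low counts through the Rad21 KO libraries. The other tested genes, Psmb11 (log2 fold change 0.03) and Col1a1 (-0.4), did not pass, and Krt5, Krt8 and Foxn1 were too low to test. The higher sum in Rad21 KO thus came from Epcam. In sorted bulk cells a smaller share of a cell type and less RNA per cell cannot be told apart.

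Of the receptor and its 4 targets, Sgk1 alone passed the test between Rad21 KO and WT, with a rise of 1.48-fold. Tsc22d3 and Txnip were higher on average in Rad21 KO, and Nr3c1 and Fkbp5 lower, without passing. Among all tested genes, 12.8% passed (912 higher and 621 lower), so 1 of 5 is near the background. With library totals only in place of TMM scaling 343 genes were higher and 851 lower, with no filter on low counts 433 passed in all, and without WT replicate 2 947 passed. Changes are fitted log2 ratios of Rad21 KO over WT from edgeR's quasi-likelihood test with 2 libraries per genotype, and adjusted p-values cover all 12003 genes.

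The receptor gene Nr3c1 had 303 and 388 CPM in Rad21 KO replicates 1 and 2, against 375 and 371 CPM in the WT replicates. The Rad21 KO libraries lay on either side of WT, and the WT libraries were almost equal. The log2 fold change was -0.11 (SE 0.13, adjusted p = 0.628 by edgeR), with a 95% interval of -0.42 to 0.2. Without Rad21 KO replicate 1 it was 0.06, so even the sign depended on that library.

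The feedback co-chaperone gene Fkbp5 had 166 and 150 CPM in Rad21 KO, against 185 and 162 CPM in WT. The groups overlapped, with the higher Rad21 KO library above the lower WT library. Its log2 fold change was -0.14 (SE 0.11, 95% interval -0.41 to 0.13, adjusted p = 0.472 by edgeR). It ranged from -0.24 without WT replicate 2 to -0.04 without WT replicate 1.

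Tsc22d3 stood at 366 and 383 CPM in Rad21 KO and at 269 and 347 CPM in WT. Both Rad21 KO libraries were above both WT libraries, but WT replicate 2 lay closer to them than to WT replicate 1. The log2 fold change of 0.28 did not pass (SE 0.13, 95% interval -0.04 to 0.6, adjusted p = 0.216 by edgeR). It ranged from 0.11 without WT replicate 1 to 0.47 without WT replicate 2.

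Txnip, with 814 and 754 CPM in Rad21 KO and 743 and 539 CPM in WT, also had groups that did not overlap, by a narrow margin to WT replicate 1. Its log2 fold change was 0.29 (SE 0.16, 95% interval -0.09 to 0.67, adjusted p = 0.282 by edgeR), and it was 0.54 without WT replicate 1 and 0.07 without WT replicate 2. Groups did not overlap in 58.9% of all tested genes, so the 3 of 5 members of which this holds are near the background too.

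The kinase gene Sgk1 had 79.9 and 64.8 CPM in Rad21 KO, from 584 and 466 counts, against 50.6 and 46.9 CPM in WT, from 370 and 339 counts. Both Rad21 KO libraries were above both WT libraries, and the gap between the genotypes was close to the distance between the Rad21 KO libraries. On the log2 scale the rise was 0.57 (SE 0.14, 95% interval 0.23 to 0.91, adjusted p = 0.0449 by edgeR). The call was lost without Rad21 KO replicate 1 (0.42, adjusted p = 0.104), without WT replicate 1 (0.62, adjusted p = 0.0621) and without WT replicate 2 (0.51, adjusted p = 0.15), and the log2 fold change stayed above 0 throughout.

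**Figure D1:**
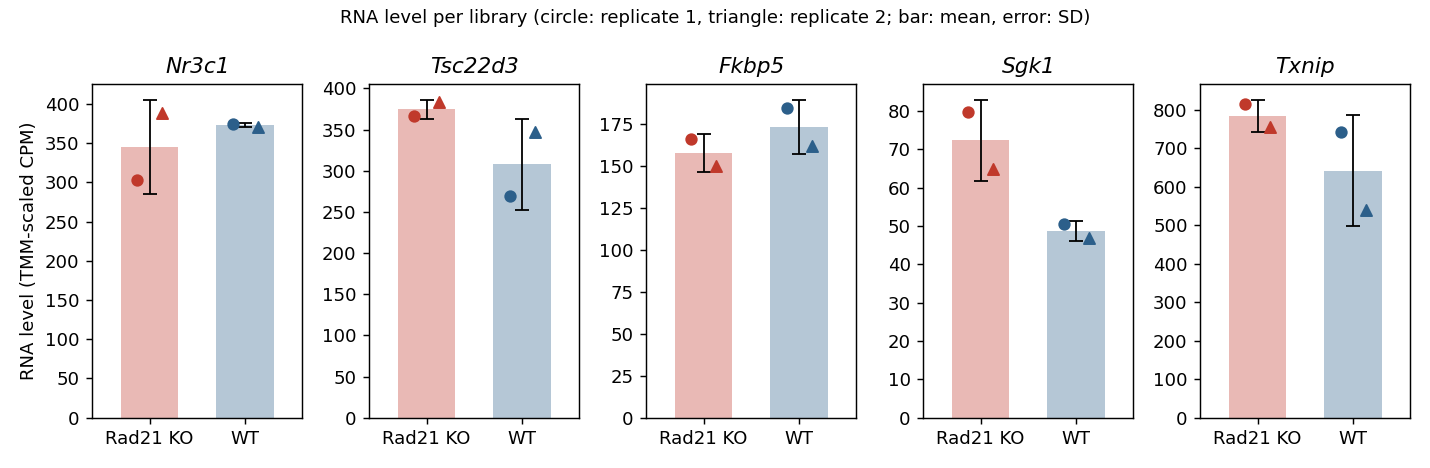
RNA level in TMM-scaled CPM (vertical axis) of the 5 genes in each Rad21 KO and WT library; bars are means, error bars the SD of 2 libraries, circles replicate 1 and triangles replicate 2. The Rad21 KO and WT points of Sgk1 are furthest apart relative to their level, while those of Nr3c1 and Fkbp5 overlap.

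**Figure D2:**
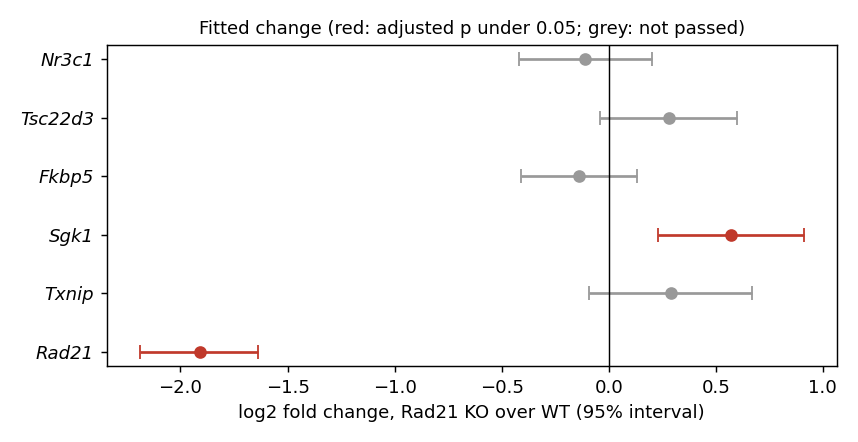
Fitted log2 fold change of Rad21 KO over WT (horizontal axis) with its 95% interval for the 5 genes and for Rad21; red marks an adjusted p under 0.05 and grey the rest. The interval of Sgk1 (0.23 to 0.91) stays above 0, those of the other 4 members include 0, and Rad21 stands at -1.91.

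The 5 genes did not all vary together across the 4 libraries, though Sgk1 and Txnip ranked the libraries in the same order. Relative to each gene's mean on the log2 CPM scale, WT replicate 1 was the lowest library of Tsc22d3 (-0.33) and the highest of Fkbp5 (0.16). WT replicate 2 was the lowest library of both Txnip (-0.38) and Sgk1 (-0.33). Rad21 KO replicate 1 was the highest library of Sgk1 (0.43) and Txnip (0.21) and the lowest of Nr3c1 (-0.24).

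The pattern most like each member was sought among 9821 other genes averaging 5 CPM or more, as the smallest Euclidean distance between centred log2 CPM values over the 4 libraries. Nearest to Nr3c1 were Ecd (distance 0.0202), Ncaph2 (0.0294) and Thoc7 (0.0421). Nearest to Fkbp5 were Uba3 (0.0105), Sept1 (0.0131) and Hadha (0.0169), and nearest to Tsc22d3 were Ggn (0.0398), Eif4g3 (0.0399) and Taf1 (0.0464). Txnip was nearest to Thyn1 (0.031), Scamp1 (0.0491) and Mgat5 (0.0687). Sgk1 was nearest to Dexi (0.0293), Zcchc10 (0.0312) and Txndc5 (0.0508), and those 3 did not pass the test, with log2 fold changes of 0.59, 0.58 and 0.6. None of these 15 genes is another member or in a list below, and with 4 libraries such likeness is a description only.

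Outside the 4 members, other known induced targets were followed as a list. Of 39 listed genes known to be induced by glucocorticoid in at least some cell types, 30 were tested: 14 rose, 2 fell and 14 did not pass, and the median of their log2 fold changes was 0.7. With the replicate block 12 were higher and 2 lower. Among all tested genes 7.6% were called higher and 5.17% lower, with a median of -0.01. The list was chosen with earlier results of these data known, so its larger share is a description and not a test. Of the listed genes with a RefSeq window, 34 in all, 0 hold the full glucocorticoid element, against 0.0111% of all genes. For so rare an element, 0 of 34 is near the background. The core element stood in 1, Mt1 (2.94%, against 0.537% of all genes), which was too low to test. The E-box stood in 6 (17.6%, against 8.09% of all genes). These were Per1, Irs2, Dusp1 and Tsc22d1, with log2 fold changes above 0, and Bcl6 and Crispld2, with values below 0. On leaving out single libraries the list had 13 or 14 genes higher and 2 lower. Several of these genes, such as Nfkbia, Birc3 and Dusp1, are known to be induced by other signals as well.

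The clock gene Per1, a well-known direct target of the receptor, had 778 and 920 CPM in Rad21 KO, against 214 and 251 CPM in WT (log2 fold change 1.87, SE 0.13, adjusted p = 0.00113 by edgeR). Cebpb, which encodes a bZIP transcription factor, had 19.2 and 14.3 CPM in Rad21 KO, against 4.51 and 4.15 CPM in WT (1.95, SE 0.25). Klf9, a Krüppel-like factor gene that the receptor induces in many tissues, had 9.58 and 13.3 CPM in Rad21 KO and 3.01 and 4.29 CPM in WT (1.65, SE 0.31, adjusted p = 0.0192 by edgeR). For all 3 genes both Rad21 KO libraries exceeded both WT libraries by more than the libraries of a genotype differed.

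The fatty acid activating enzyme gene Acsl1 rose to 34.9 and 30.7 CPM in Rad21 KO, against 10.1 and 11.6 CPM in WT, and the corepressor gene Tle1 to 14 and 13.2 CPM, against 6.01 and 4.99 CPM. The call of Tle1 was lost without WT replicate 2 (1.17). Irs2, an adaptor of insulin signalling, had 184 and 177 CPM in Rad21 KO and 77.6 and 72.4 CPM in WT (1.27, SE 0.1, adjusted p = 0.00145 by edgeR). The groups of these 3 genes did not overlap.

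The other called genes of the list are named because they passed, with values already seen. Gpr65, a proton-sensing receptor gene also known as T cell death-associated gene, had a log2 fold change of 1.16 (SE 0.18). Nfkbia, which encodes the NF-κB inhibitor IκBα, stood at 1.15 (SE 0.14), and Birc3, an inhibitor of apoptosis, at 0.93 (SE 0.21). On leaving out Rad21 KO replicate 2 Birc3 was at 0.57. With the replicate block it did not pass (0.89, adjusted p = 0.0523 by edgeR). Bcl2l11 encodes the death-promoting protein Bim, which contributes to the death of glucocorticoid-treated thymocytes. Bcl2l11 had 414 and 572 CPM in Rad21 KO, against 261 and 276 CPM in WT (0.88, SE 0.16, adjusted p = 0.0157 by edgeR). Smaller rises were seen for Errfi1 (0.81), Rgs2 (0.77), the phosphatase gene Dusp1 (0.66) and the PI3K inhibitor gene Pik3ip1 (0.46). The calls of Errfi1 and Pik3ip1 were lost on leaving out single libraries: Errfi1 without Rad21 KO replicate 1 or WT replicate 2, and Pik3ip1 without Rad21 KO replicate 2 or either WT replicate (0.74 and 0.57 for Errfi1, 0.38, 0.46 and 0.46 for Pik3ip1).

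The members of the list that fell were Bmf, another death-promoting gene of the BCL2 family, and the repressor gene Bcl6. Bmf had 89.1 and 73.4 CPM in Rad21 KO, against 159 and 186 CPM in WT (log2 fold change -1.09, SE 0.14), and Bcl6 had 126 and 121 CPM in Rad21 KO, against 212 and 206 CPM in WT (-0.76, SE 0.1). Among genes that did not pass, named after their values were seen, Ddit4 stood at -0.34, Zfp36 at -0.28, Klf13 at 0.4 and Btg1 at 0.05. With library totals only in place of TMM scaling, which moved the median of all genes to -0.29, the count of the list was 6 higher (Cebpb, Per1, Klf9, Acsl1, Irs2 and Nfkbia) and 2 lower. With no filter on low counts it was again 6 (Cebpb, Per1, Acsl1, Irs2, Gpr65 and Nfkbia) and 2.

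**Figure D3:**
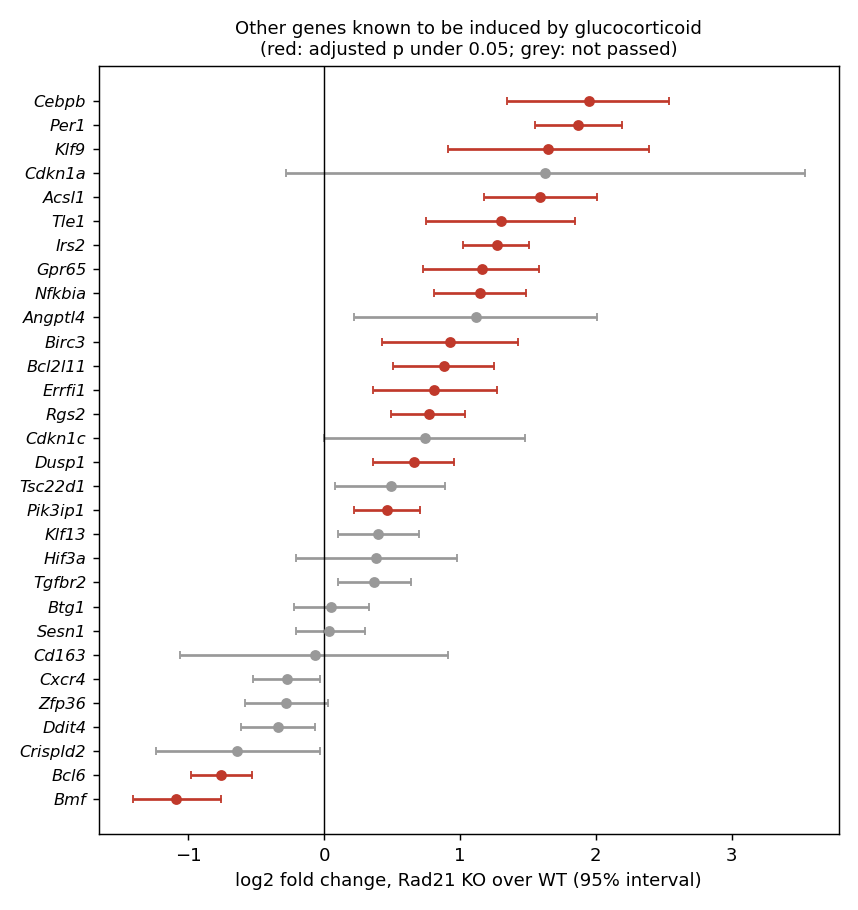
Fitted log2 fold change of Rad21 KO over WT (horizontal axis) with its 95% interval for the 30 tested genes of the induced target list, in order of size; red marks an adjusted p under 0.05 and grey the rest. The 14 genes that rose run from Pik3ip1 (0.46) to Cebpb (1.95), and Bmf (-1.09) and Bcl6 (-0.76) fell.

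Genes that the receptor is known to repress, mainly cytokines and inflammatory genes, were mostly too low to test in these cells. Of 25, 22 were in the table and 8 were tested, of which 4 rose and 2 fell. The shares of these few genes were 50% higher and 25% lower, against 7.6% and 5.17% of all tested genes, with a median of 0.56. Nfkb1 (0.44) and Myc (0.35), named after their values were seen, did not pass. Cxcl10, a chemokine gene, had 32 and 42 counts in the Rad21 KO libraries, against 1 and 0 counts in the WT libraries (adjusted p = 0.00433 by edgeR). Cxcl10 passed the filter on low counts through the Rad21 KO libraries alone, so at such WT counts only a rise could be seen. It is 1 of the 4 genes that rose, so the 50% share rests in part on it. Tnf had 13.7 and 25 CPM in Rad21 KO, against 2.87 and 1.94 CPM in WT, and the adhesion molecule gene Icam1 had 37.5 and 38.6 CPM, against 12.2 and 11.5 CPM. The AP-1 gene Jun rose to 813 and 852 CPM in Rad21 KO, against 479 and 561 CPM in WT, with its call lost without WT replicate 1 (0.57). Genes that fell were its partner Fos (226 and 270 CPM in Rad21 KO, 339 and 375 CPM in WT) and the cyclin gene Ccnd3 (297 and 236 CPM in Rad21 KO, 620 and 649 CPM in WT). The call of Fos was lost without Rad21 KO replicate 1 (-0.4) or WT replicate 2 (-0.46).

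Chaperones of the receptor complex rose in part. Of 18 tested, 6 rose, 1 fell and 11 did not pass, with 0.37 as the median on the log2 scale. The shares were 33.3% higher and 5.56% lower, against 7.6% and 5.17% of all tested genes. The heat-shock protein 90 genes, whose products hold the receptor ready for hormone, both rose: Hsp90aa1 had 810 and 999 CPM in Rad21 KO, against 472 and 434 CPM in WT (1, SE 0.13, adjusted p = 0.00574 by edgeR). Hsp90ab1 had 1250 and 1200 CPM in Rad21 KO, against 672 and 625 CPM in WT (0.92, SE 0.11). Ptges3, which encodes the co-chaperone p23 of the mature complex, had 50.6 and 49.2 CPM in Rad21 KO, against 31.4 and 30.7 CPM in WT, with its call lost without either WT library (0.7 and 0.66). The inducible chaperones Hspa1a and Hspa1b stood at 3.09 (SE 0.26) and 2.46 (SE 0.18), and since they are near-identical copies their counts are uncertain. Hspa4 (0.43), named after its value was seen, rose with a call lost without Rad21 KO replicate 2 or either WT replicate (0.36, 0.46 and 0.4). The ubiquitin ligase gene Stub1 fell (-0.55, SE 0.14, adjusted p = 0.0411 by edgeR), with its call lost without any 1 of the 4 libraries (-0.6 to -0.51). Fkbp4, whose product competes with that of Fkbp5 for the same complex, had 115 and 121 CPM in Rad21 KO, against 85.4 and 94.6 CPM in WT, and did not pass (0.39, adjusted p = 0.0642 by edgeR); it was chosen, with its value already seen, for its pairing with Fkbp5. With library totals only, the list had 2 higher (Hspa1a and Hspa1b) and 1 lower.

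Among 21 coregulators of the receptor, 3 rose and 18 did not pass, and the median was 0.18 on the log2 scale. The share that rose, 14.3%, stands against 7.6% of all tested genes, and the share called in either direction is near the 12.8% of all. Nrip1, which encodes a nuclear receptor corepressor, had 516 and 589 CPM in Rad21 KO, against 285 and 299 CPM in WT (0.92, SE 0.11, adjusted p = 0.00383 by edgeR). The histone methyltransferase gene Kmt2d (0.71, SE 0.15) and the acetyltransferase gene Crebbp (0.44, SE 0.11) rose as well. The call of Kmt2d was lost without Rad21 KO replicate 1 (0.68) or WT replicate 1 (0.51), and that of Crebbp without either Rad21 KO replicate (0.43 and 0.47) or WT replicate 1 (0.33). Without WT replicate 1, Nrip1 was the 1 coregulator called. With library totals only, Nrip1 (0.65), Kmt2d (0.42) and Crebbp (0.15) all lost their calls.

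Of the genes that make or convert steroids, 10 of 21 were tested, 2 rose and 8 did not pass, with a median of 0.09. The 2 of 10 stand against 7.6% of all tested genes that rose. H6pd, which supplies the cofactor for reactivation of glucocorticoid in the endoplasmic reticulum, had 381 and 280 CPM in Rad21 KO, against 154 and 164 CPM in WT (1.05, SE 0.15). The ferredoxin gene Fdx1, an electron carrier for mitochondrial steroid enzymes, had 28.1 and 29.5 CPM in Rad21 KO, against 15.6 and 12.6 CPM in WT (1.03, SE 0.18). With library totals only, or with no filter on low counts, neither was called. The activating enzyme gene Hsd11b1 itself, chosen after its value was seen, stood at 19.8 and 22.2 CPM in Rad21 KO and at 19.1 and 22.3 CPM in WT.

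Among related steroid receptors, 3 of 5 were tested, of which 1 fell and 2 did not pass, beside 5.17% of all tested genes that fell. The estrogen receptor gene Esr1 fell to 4.65 and 4.45 CPM in Rad21 KO, against 9.84 and 10.4 CPM in WT (-1.15, SE 0.25, adjusted p = 0.0298 by edgeR). It no longer passed on leaving out Rad21 KO replicate 2 (-1.1), WT replicate 1 (-1.19) or WT replicate 2 (-1.11), nor in DESeq2 (adjusted p = 0.0996). The mineralocorticoid receptor gene Nr3c2, whose product also binds glucocorticoid, had 0.684 and 1.11 CPM in Rad21 KO, against 1.64 and 4.71 CPM in WT. It did not pass (adjusted p = 0.113 by edgeR). With library totals only, where the median of all genes was -0.29, Nr3c2 was called (-2.08, adjusted p = 0.0148 by edgeR). Its counts were 5 and 8 in Rad21 KO, against 12 and 34 in WT. Nr3c2 thus passed the filter on low counts through the WT libraries, so at such Rad21 KO counts only a fall could be seen.

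Relatives of the 4 targets were described in the same way. In the TSC22 family, 1 of 3 tested genes rose, beside 7.6% of all tested genes. Tsc22d2 rose, with 146 and 156 CPM in Rad21 KO and 83.1 and 76 CPM in WT (0.92, SE 0.11, adjusted p = 0.0039 by edgeR). Tsc22d4 (-0.16) and, named after its value was seen, Tsc22d1 (0.49) did not pass. With library totals only Tsc22d2 lost its call (0.64, adjusted p = 0.125 by edgeR), and Tsc22d4 was at 0.02 without Rad21 KO replicate 2. Of 9 tested FK506-binding protein genes other than Fkbp5, 0 passed in edgeR, DESeq2 or limma-voom, and 2 had an unadjusted p under 0.05 in edgeR. Among all tested genes 12.8% passed in edgeR, so for 9 genes this is near the background. Those with the most reads, Fkbp8 and Fkbp15, stood at -0.25 and -0.2.

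In the SGK1 pathway, 3 of 17 tested genes rose and 14 did not pass, with a median of -0.01. The share that rose was 17.6%, against 7.6% of all tested genes, and the median equals that of all tested genes. Each of the 3 encodes a known substrate of the kinase, but a rise was not general among substrates. Nedd4l (0.13), Gsk3b (0.15) and Gsk3a (-0.03), listed as targets too and named after their values were seen, did not pass. Ndrg1 had 89.4 and 109 CPM in Rad21 KO, against 29 and 18.4 CPM in WT (2.07, SE 0.22, adjusted p = 0.00301 by edgeR). The forkhead factor gene Foxo1 had 121 and 160 CPM in Rad21 KO and 34.3 and 59.8 CPM in WT (1.58, SE 0.26), and Foxo3 had 384 and 388 CPM in Rad21 KO and 242 and 234 CPM in WT (0.7, SE 0.09). Foxo3 lost its call with library totals only (0.41, adjusted p = 0.354 by edgeR) and Foxo1 with no filter on low counts (adjusted p = 0.0757 by edgeR). The sister kinase gene Sgk3 (-0.23) and the mTORC2 subunit gene Rictor (-0.13), both chosen after their values were seen, did not pass.

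In the TXNIP pathway and arrestin family, 3 of 13 tested genes rose and 10 did not pass, with a median of 0.22. The share that rose was 23.1%, against 7.6% of all tested genes. Arrdc3, an arrestin relative of Txnip, had 321 and 305 CPM in Rad21 KO, against 155 and 104 CPM in WT (1.27, SE 0.18, adjusted p = 0.00693 by edgeR). The glucose transporter gene Slc2a1, whose product Txnip restrains, had 45.4 and 51.6 CPM in Rad21 KO, against 22.8 and 15.4 CPM in WT (1.34, SE 0.21). Mlxip, which encodes MondoA, the glucose-responsive factor that binds the element shown above, had 149 and 155 CPM in Rad21 KO, against 106 and 116 CPM in WT (0.45, SE 0.1), with its call lost without any 1 of the 4 libraries (0.39 to 0.51). Thioredoxin gene Txn1 itself, chosen after its value was seen, stood at 0.02. With no filter on low counts, none of the 3 was called.

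**Figure D4:**
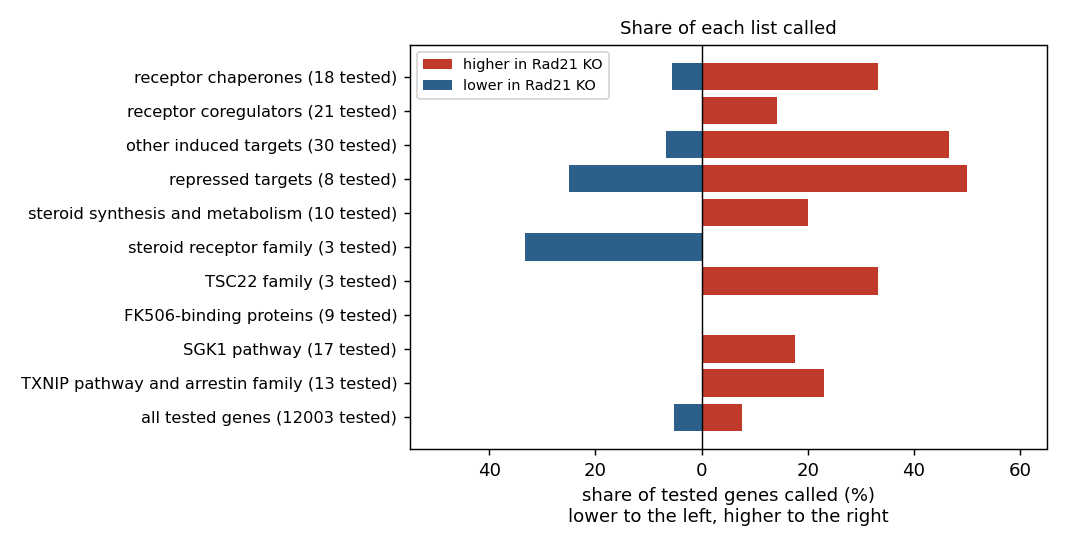
Share of tested genes called (horizontal axis, percent) in each list and among all tested genes, with genes higher in Rad21 KO to the right in red and genes lower in Rad21 KO to the left in blue. The induced target list has 46.7% higher and 6.67% lower, against 7.6% and 5.17% of all tested genes. The lists were chosen with earlier results of these data known.

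Sgk1 had the highest log2 fold change of the 5 members in the fit as reported and under all 11 alternatives tried, and Nr3c1 or Fkbp5 had the lowest.

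**Figure D5:**
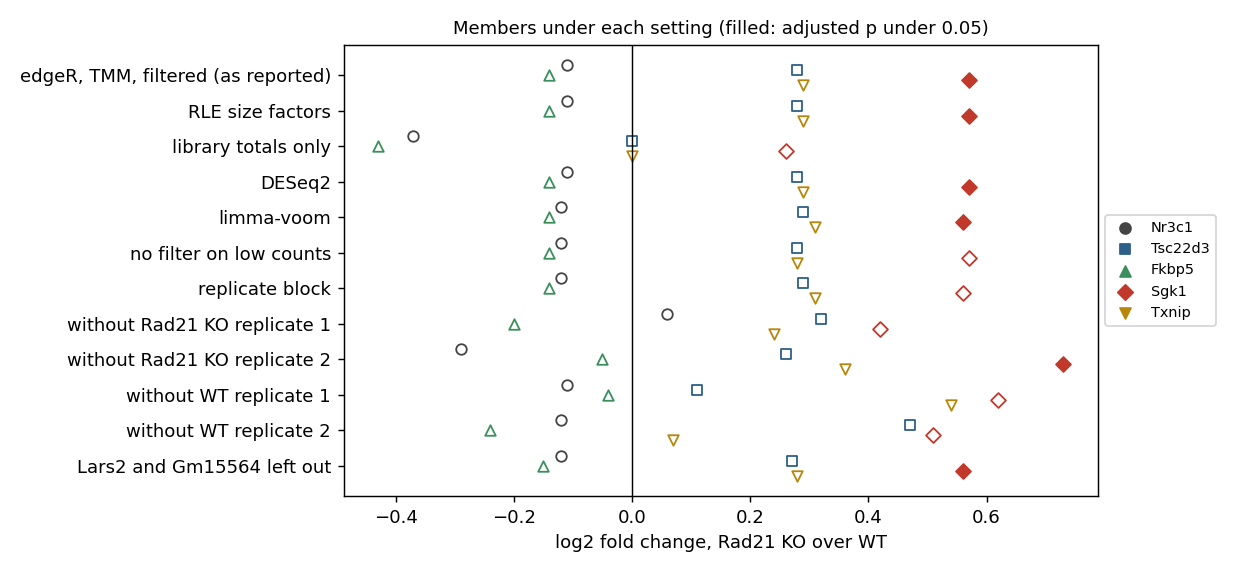
Log2 fold change of Rad21 KO over WT (horizontal axis) of the 5 members under the fit as reported and 11 alternatives (rows); filled symbols have an adjusted p under 0.05. Sgk1 lies between 0.26 and 0.73 throughout, and only Sgk1 has filled symbols; Nr3c1 is above 0 only without Rad21 KO replicate 1.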

How the data were processed

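The authors deposited RNA-seq values for Ensembl genes under the name count equivalents, which were treated as estimated counts; all were whole numbers, and rounding was applied as a precaution. The submitters' processing notes name mm9 as the build. How reads were aligned, counted and assigned to strands is not given in the sources used here. Genes that overlap others therefore have uncertain counts. No table of gene lengths was used, so RNA levels are not compared between genes. Symbols were found for 17342 of 17849 identifiers. The knockout columns spell Rad21 without one digit and were matched by the rest of the name. No per-sample column was left unused.

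From these counts, edgeR 4.0.16 in R 4.3.3 was run with filterByExpr, TMM scaling and a quasi-likelihood test for genotype, then Benjamini-Hochberg adjustment over all tested genes and a threshold of 0.05. Intervals of log2 fold changes use the test's degrees of freedom. Alternatives were RLE or no scaling factors, DESeq2 1.42.0, limma-voom (limma 3.58.1), no filter, a replicate block, leaving out each library, and leaving out Lars2 and Gm15564. An exact permutation test of 2 against 2 libraries cannot go below a two-sided p of 0.333 and was not used. Whether the libraries come from different animals is not stated in the labels; the p-values rest on differences between libraries, which may be technical. Each library counted as 1 sample. A count of 3 per library corresponds to 0.41 to 0.417 CPM.

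The members and gene lists were chosen with earlier results of these data known. Named were the 5 members, Rad21, up to 6 called genes of each list by size of change (the 2 genes with the highest mean CPM, which follows length as well as level, where fewer than 2 were called), and the 3 nearest patterns per member; others are marked in the text. The summed level of double-positive markers covers the 9 genes named beside it, and the rest of that marker list is not reported here. ChIP peak lists, ChIP inputs and Hi-C libraries were not used here.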

Additional observations from a re-analysis of the deposited data

How the results depend on the processing

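Sgk1 kept its direction under all 11 alternatives. Its call held with RLE size factors, DESeq2, limma-voom and without Lars2 and Gm15564. It was lost with library totals only (log2 fold change 0.26), with no filter on low counts (0.57) and with the replicate block (0.56, adjusted p = 0.0578 by edgeR), and leaving out single libraries gave 0.42 to 0.73. On leaving out single libraries Nr3c1 ranged from -0.29 to 0.06, and Txnip stood at 0 with library totals only, where the median of all genes was -0.29; relative to that median Txnip was at 0.29, Sgk1 at 0.56 and Tsc22d3 at 0.3. That setting called 343 genes higher and 851 lower, against 912 and 621 in the fit as reported, and 23 of 130 tested list genes, against 42. With no filter, which tests more genes, 433 genes were called (285 higher, 148 lower) and 20 list genes. Leaving out single libraries gave 947 to 1438 calls, 574 to 880 higher and 373 to 558 lower, and 30 of the 42 list genes remained called on leaving out each library in turn. The cause of these shifts was not tested. The replicate numbers are not said to pair the libraries, and the differences between replicates 1 and 2 in Rad21 KO and in WT correlated at 0.04 across 12003 genes; the replicate block called 644 genes higher and 381 lower. The intervals given for Nr3c1, Fkbp5, Tsc22d3 and Txnip include 0. Changes of a size within those intervals were not excluded with 2 libraries per genotype. Peaks were not placed at the gene starts, since no mm9 annotation was used, so the alternative distances were not run.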
